A study of Mus musculus with 18 samples.

Results

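The star strands of mouse miRNAs were followed in Neuro2A cells, a mouse neuroblastoma line, that carried one of 2 forms of the TATA-binding protein (TBP). A star strand is the arm of a miRNA hairpin whose array name ends in an asterisk, and its guide is the entry of the same name without it. The array carried 115 such mouse entries. Of these, 10 belong to miRNA numbers that the choice of members leaves out, which left 105 star strands among 566 mouse entries. To be tested, a star strand had to exceed background clearly on every one of the 3 arrays of some group, and 17 of the 105 met that rule. Only 11 of the 17 had a guide that could be tested as well.

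A miRNA hairpin is cut by Drosha and then Dicer into a short duplex. One strand, the guide, is kept by an Argonaute protein and directs it to target mRNAs, while the other, the star or passenger strand, is usually degraded. The asterisk was given to the arm that was rarer when a hairpin was first sequenced, and for some hairpins the rarer arm differs between tissues. Newer names give the arm of the hairpin, 5p or 3p, in place of the asterisk.

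Both constructs were fusions of TBP with green fluorescent protein, delivered by Amaxa nucleofection, and they differed in the length of the polyglutamine tract. The 16Q-TBP cells received a tract of 16 glutamines and the 59Q-TBP cells one of 59. TBP is a general transcription factor, and a long tract in it causes spinocerebellar ataxia type 17. Cells were lysed in Trizol 24, 36 or 60 h later, which gave 6 groups of 3 biological replicates, and total RNA of each of the 18 samples went to its own one-colour Agilent array. All groups were transfected cells of this 1 line (strain A), which carries its own TBP besides the fusion, and no untransfected group was analysed here. The labels do not say whether replicates were separate cultures, and p-values cover only the spread seen among these samples.

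Between 19.9% and 37.5% of the mouse spots on an array were well above background, and no spot was saturated. Precision is limited by how many arrays there are. Of 7 neuronal marker miRNAs on the array, miR-125b-5p was above background on all 18 arrays, miR-7a on 11 and miR-181a on 9, while miR-124 was on 1 and miR-9 and miR-9* on none. The markers of blood (5 of 5), epithelium (5 of 5) and liver (1 of 1) were above background on no array, and of 3 muscle miRNAs miR-206 was on 8 arrays. There were arrays that stood apart within their groups. The 16Q 24 h replicates 1 and 2, the second 59Q replicate of 36 h and the first of 60 h had the lowest median correlations with the other arrays, from 0.759 to 0.801. Results that rest on these 4 arrays are given with and without them. Leaving them out keeps 1 array of 16Q at 24 h, so any 16Q change from 24 h then rests on that array, which is assumed to vary like the other groups. Slide and time were tied as well: the 24 h arrays lay on one slide and the 60 h arrays on 2 others.

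The sequences below are those of the arm pairs whose balance passed the test in any comparison, given as RefSeq holds them on build GRCm38.p6, 5′ to 3′. Capitals mark the seed, bases 2 to 8, which pairs with target mRNAs. Both arms of a hairpin are shown, since they are the 2 quantities compared.
miR-214*: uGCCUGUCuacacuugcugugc
miR-214: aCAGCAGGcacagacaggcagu
miR-483*: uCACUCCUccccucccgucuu
miR-483: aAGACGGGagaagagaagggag
miR-877*: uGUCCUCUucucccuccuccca
miR-877: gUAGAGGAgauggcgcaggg
miR-99b*: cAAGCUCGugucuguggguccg
miR-99b: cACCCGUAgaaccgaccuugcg
miR-138*: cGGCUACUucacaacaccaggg
miR-138: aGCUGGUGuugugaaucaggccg

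The star of miR-214 lies at chr1:162223397-162223418 on the plus strand, within the spans of Dnm3 and Dnm3os. The star of miR-483 lies at chr7:142654932-142654952 on the minus strand, within Igf2. On the minus strand of chr17, the miR-877 star lies at chr17:35960731-35960752 within Abcf1, where miR-877 is known as a mirtron, a hairpin that splicing and not Drosha releases. The miR-99b star lies at chr17:17830232-17830253 on the plus strand within the span of Spaca6. For miR-138 the star arm at chr9:122682936-122682957 on the plus strand lay within no other RefSeq gene. The guide arm of miR-138 is made from 2 loci, and its star entry from one of them.

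A further set of star strands is shown because their own level rose, or because they share a seed.
miR-150*: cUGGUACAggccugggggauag
miR-135a*: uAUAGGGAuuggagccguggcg
miR-295*: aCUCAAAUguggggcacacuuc
miR-30c-1*: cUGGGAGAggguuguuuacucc
miR-30c-2*: cUGGGAGAaggcuguuuacucu

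Among the tested star strands with a sequence in RefSeq, only the stars of miR-30c-1 and miR-30c-2 shared a seed, UGGGAGA. Those 2 stars are identical at 19 of 22 positions, so their probes may share signal, and both were set against the single guide entry miR-30c. The miR-150 star lies at chr7:45121798-45121819 on the plus strand, in no other RefSeq gene. The miR-135a star lies at chr9:106154179-106154200 on the plus strand, within the spans of Glyctk and D030055H07Rik, and the miR-295 star at chr7:3220779-3220800 on the plus strand, within Nlrp12 and D7Ertd143e. The miR-30c-1 star lies at chr4:120769546-120769567 on the minus strand within Nfyc, and the miR-30c-2 star at chr1:23291754-23291775 on the plus strand.

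Most star strands were too dim to test: 17 of 105 (16.2%) could be, against 209 of 461 other mouse entries (45.3%). Of the 88 star strands that could not be tested, 67 were above background on no array and 21 on 1 to 8 arrays. The 2 nearest to the rule were let-7d* and miR-145*, each on 8 arrays but never on all 3 of a group. Just inside it, miR-18a* was above background on 7 arrays and let-7b* on 10, and let-7b* entered through the 59Q 36 h group alone. A star strand that entered through a group where it was bright had to differ from groups where it was dim, so counts over the 17 are not support for a difference.

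The guide was often bright where its star was not. For 27 of the 88 untested star strands the guide was above background on all 18 arrays, and for 20 of those 27 the star was on none. These 20 include let-7c-1*, the 3 miR-29 stars (miR-29a*, miR-29b* and miR-29c*) and miR-19a*, miR-20a* and miR-92a* of the miR-17 cluster and its relatives, which promote cell cycling. The reverse also occurred. The stars of miR-135a, miR-140, miR-150 and miR-295 were above background on all 18 arrays, yet the guide was on no array for miR-135a, miR-150 and miR-295 and on 2 for miR-140. For miR-433* and miR-676*, each on 12 arrays, the guide was on none. Detection depends on each probe's own brightness and is no measure of which arm is more abundant.

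By group, 1 of 7 let-7 stars was tested (let-7b*), 2 of 8 stars of the miR-17 cluster and its relatives (miR-17* and miR-18a*) and 2 of 5 miR-30 stars. None of the 7 stars of the miR-29, miR-15/16 and miR-26 families was. Of the stars of neuronal miRNAs 2 of 10 were tested, miR-135a* and miR-138*, the second from a hairpin whose guide limits dendritic spine growth. Of the 12 stars from the imprinted Dlk1-Dio3 region only miR-433* was tested, and of 10 stars of miRNAs known from other lineages miR-150*, of lymphocytes, and miR-214* were. The other 7 came from no list: miR-140*, miR-295* of the embryonic stem cell cluster, miR-470*, miR-483*, miR-676*, miR-877* and miR-99b*. A total of 5 star strands rest on a single probe, miR-214*, miR-30c-1*, miR-30c-2*, miR-433* and miR-676*.

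**Figure D1:**
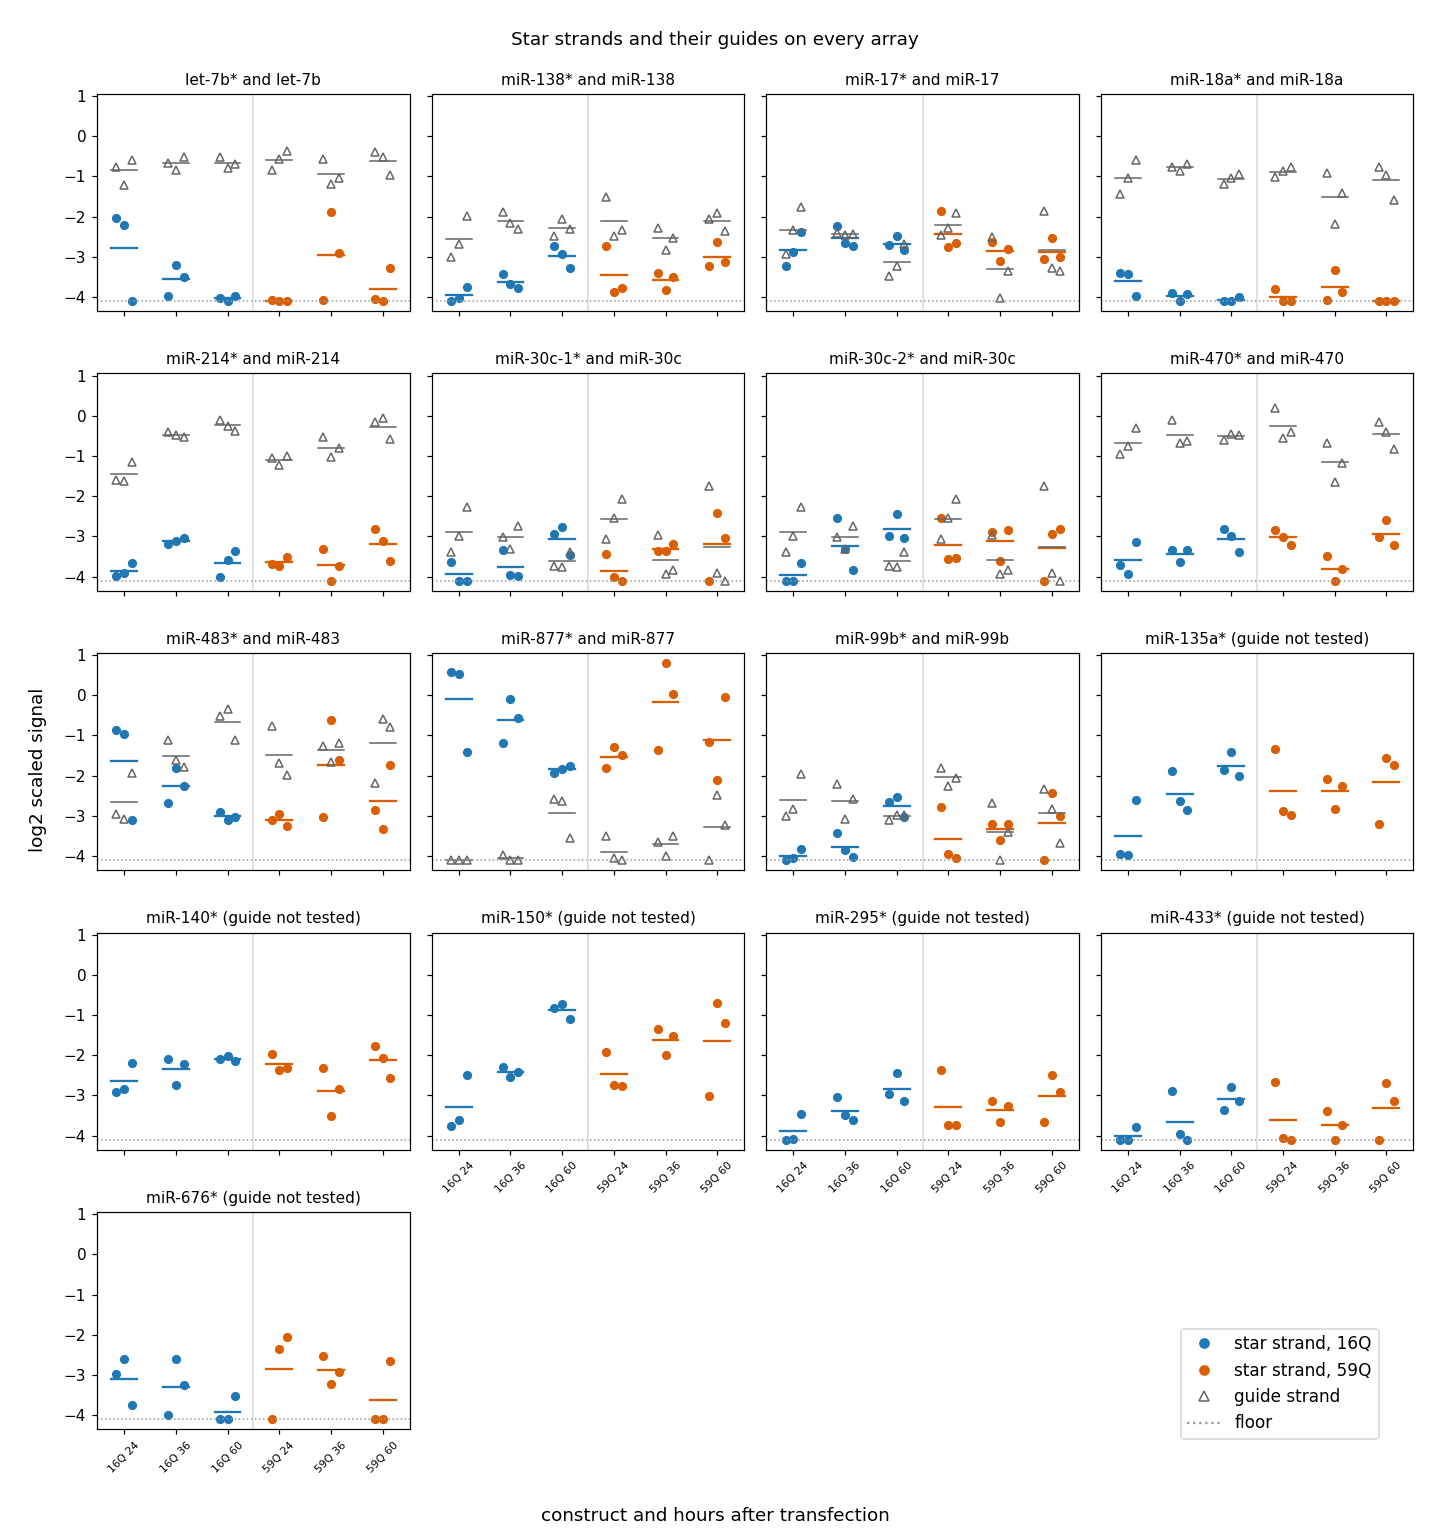
Each panel plots 1 of the 17 tested star strands (filled circles, blue for 16Q and orange for 59Q) and, where it could be tested, its guide (open triangles), by construct and hours after transfection. The vertical axis is the log2 scaled signal, short lines are means of 3 arrays and the dotted line is the floor at -4.11. Heights of star and guide come from different probes and cannot be set against each other, only their changes. miR-877*, miR-483* and let-7b* are highest on the same 3 arrays, and the group mean of miR-150* is highest at 60 h in 16Q cells.

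Values below are log2 scaled signals: the processed signal of an array divided by its 75th percentile over the 290 probes bright on all arrays, with a floor at -4.11. Star minus guide is the difference of these log2 values on 1 array. Its absolute size depends on 2 different probes and carries no meaning, but its change between groups does not depend on how an array was scaled, other than through the floor. Tests are limma's, adjusted by Benjamini-Hochberg over 226 entries for levels and over 22 arm pairs for star minus guide, with calls at an adjusted p under 0.05.

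Between times, the main test called star strands or their pairs only from 24 to 60 h in the 16Q cells. Pairs were called there at the same share as over all arm pairs. The 16Q arrays of 24 and 60 h share no slide, so time and slide cannot be told apart in this comparison. Of the 11 pairs, 5 passed the test: the star rose against its guide for miR-99b and miR-138, and fell against it for miR-214, miR-483 and miR-877. Over all 22 arm pairs tested, 45.5% were called (18.2% up and 27.3% down), so the share among star strands equals the background. The star-minus-guide values of the 16Q 24 h and 60 h arrays did not overlap for 8 of the 11 pairs, against 68.2% of all 22. The 5 are described next, with every array, followed by 3 further pairs that came next in order of adjusted p.

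miR-214 is a miRNA of mesenchymal and muscle development, made from the Dnm3os transcript. Its star read -3.99, -3.92 and -3.67 at 24 h, -3.20, -3.12 and -3.03 at 36 h and -4.01, -3.60 and -3.36 at 60 h on the 16Q arrays. The guide read -1.61, -1.62 and -1.15, then -0.42, -0.48 and -0.54, then -0.11, -0.25 and -0.37 on the same arrays. The guide thus lay above all its 24 h values at both later times, while the star was highest at 36 h and at 60 h overlapped 24 h. Between 24 and 60 h the guide rose by 1.22 (SE 0.229, adjusted p = 0.00373 over all entries), and the star differed by 0.20 (SE 0.266, adjusted p = 0.556). Star minus guide fell by 1.01 (SE 0.232, limma adjusted p = 0.0082), from -2.40 ± 0.11 to -3.42 ± 0.46 (SD, n = 3). The star, which rests on a single probe, was above background on only 1 of the 3 16Q arrays at 60 h. Both its own difference and this fall therefore include star signals not well above background. In 59Q cells the star read -3.70, -3.73 and -3.51 at 24 h, -3.32, -4.11 and -3.73 at 36 h and -2.82, -3.12 and -3.60 at 60 h. The guide there read -1.06, -1.23 and -1.0, then -0.54, -1.03 and -0.81, then -0.17, -0.06 and -0.59. Star minus guide at 60 h lay below its 24 h values on all 59Q arrays too, but by 0.36 (log2 -0.36, SE 0.232, adjusted p = 0.411). Without the 4 arrays the 16Q change was -0.90 (adjusted p = 0.0992), and with the deposited log2 table it was -0.28 (adjusted p = 0.175).

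miR-483 sits in Igf2, the gene of an imprinted growth factor. On the 16Q arrays the guide rose by 1.99 between 24 and 60 h (SE 0.432, adjusted p = 0.00791). The star did not pass, with a difference of -1.37 (SE 0.595, adjusted p = 0.0821) that became 0.086 without the 4 arrays (adjusted p = 0.887). The star read -0.87, -0.96 and -3.10 at 24 h, -2.68, -1.81 and -2.25 at 36 h and -2.91, -3.11 and -3.02 at 60 h. The guide read -2.95, -3.07 and -1.93, then -1.11, -1.62 and -1.77, then -0.51, -0.35 and -1.12. At 24 h replicates 1 and 2 had a high star and a low guide, and the star on replicate 3 lay within the 60 h values. With no scaling the guide differed by 1.07 between 24 and 60 h (adjusted p = 0.0577) and the star by -2.27 (adjusted p = 0.0387). In the main test star minus guide fell by 3.36 (SE 0.867, adjusted p = 0.0102), from 1.01 ± 1.88 to -2.35 ± 0.43 (SD, n = 3). Leaving out the 4 arrays gave a star-minus-guide change of -1.19 (adjusted p = 0.299). On the 59Q arrays the star read -3.11, -2.95 and -3.25 at 24 h, -3.02, -0.62 and -1.60 at 36 h and -2.86, -3.31 and -1.74 at 60 h. The 59Q guide read -0.78, -1.69 and -1.98, then -1.26, -1.66 and -1.19, then -2.18, -0.58 and -0.80. Its star minus guide changed by 0.17 between 24 and 60 h (SE 0.867, adjusted p = 0.887), with a 95% interval from -1.68 to 2.02.

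For miR-877, the mirtron, the star fell and the guide rose in 16Q cells. The star was bright on every array, with 0.59, 0.52 and -1.42 at 24 h, -1.18, -0.09 and -0.58 at 36 h and -1.94, -1.84 and -1.76 at 60 h in 16Q cells. It fell by 1.74 between 24 and 60 h (SE 0.598, adjusted p = 0.0343), and the 2 groups did not overlap. The guide was above background on none of the 24 or 36 h 16Q arrays and on all 3 at 60 h, where it read -2.58, -2.62 and -3.56. It was at least 2.27-fold higher at 60 h than at 24 h (adjusted p = 0.0223), a bound that holds under this scaling and is set against the floor. With no scaling the guide differed by 0.78 (log2, adjusted p = 0.107). Star minus guide, which holds the guide at its floor at 24 h, fell by 2.93 (SE 0.788, adjusted p = 0.0102). With the 4 arrays left out the star changed by -0.43 (adjusted p = 0.73) and star minus guide by -1.61 (adjusted p = 0.238). In 59Q cells the star read -1.82, -1.29 and -1.49 at 24 h, -1.37, 0.81 and 0.04 at 36 h and -1.16, -2.10 and -0.04 at 60 h. The guide there was above background on 1, 3 and 2 arrays of the successive times. The 59Q change of star minus guide from 24 to 60 h was -0.19 (SE 0.788, adjusted p = 0.887).

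miR-99b is encoded beside let-7e and miR-125a, and its balance moved the other way. Its star read -4.11, -4.05 and -3.83 at 24 h, -3.42, -3.84 and -4.03 at 36 h and -2.66, -2.54 and -3.03 at 60 h on the 16Q arrays. The guide read -3.01, -2.83 and -1.95, then -2.22, -3.07 and -2.58, then -3.09, -2.98 and -2.97. All 3 arrays of 60 h exceeded all of 24 h for the star, while the guide's overlapped. The star rose by 1.25, or 2.37-fold (SE 0.389, adjusted p = 0.0248), and the guide differed by -0.42 (SE 0.396, adjusted p = 0.425). Star minus guide rose by 1.66 (SE 0.525, adjusted p = 0.0242), from -1.40 ± 0.42 to 0.27 ± 0.29 (SD, n = 3), and without the 4 arrays by 2.14 (adjusted p = 0.015). In 59Q cells the star read -2.77, -3.94 and -4.05 at 24 h, -3.20, -3.60 and -3.21 at 36 h and -4.11, -2.44 and -3.0 at 60 h. The 59Q guide read -1.81, -2.26 and -2.05, then -2.68, -4.11 and -3.41, then -2.33, -2.82 and -3.67. The 59Q change of star minus guide was 1.30 between 24 and 60 h (SE 0.525, adjusted p = 0.189), and without the 4 arrays it was 2.07 and passed the test (adjusted p = 0.0031).

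miR-138 is enriched in neurons. In 16Q cells its star read -4.11, -4.02 and -3.75 at 24 h, -3.43, -3.68 and -3.79 at 36 h and -2.73, -2.93 and -3.28 at 60 h. The guide read -3.0, -2.69 and -1.99, then -1.90, -2.15 and -2.30, then -2.49, -2.06 and -2.31. The star's 60 h values lay above all its earlier ones, and the guide's lay within its own 24 h range. The star rose by 0.97, or 1.96-fold (SE 0.298, adjusted p = 0.0236), against 0.28 for the guide (SE 0.307, adjusted p = 0.491). Star minus guide rose by 0.70 (SE 0.237, adjusted p = 0.029), from -1.39 ± 0.33 to -0.70 ± 0.39 (SD, n = 3), and without the 4 arrays by 1.05 (adjusted p = 0.0474). In 59Q cells the star read -2.73, -3.86 and -3.77 at 24 h, -3.40, -3.84 and -3.51 at 36 h and -3.24, -2.64 and -3.12 at 60 h. The 59Q guide read -1.51, -2.48 and -2.33, then -2.27, -2.83 and -2.52, then -2.06, -1.91 and -2.37. Star minus guide there was higher on all 3 arrays at 60 h than at 24 h, by 0.46 (SE 0.237, adjusted p = 0.393).

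The 2 miR-30c stars missed the threshold in the main test. In 16Q cells miR-30c-2* read -4.11, -4.11 and -3.65 at 24 h, -2.55, -3.32 and -3.84 at 36 h and -2.99, -2.45 and -3.05 at 60 h. miR-30c-1* read -3.63, -4.11 and -4.11, then -3.33, -3.95 and -4.0, then -2.95, -2.77 and -3.46, and their guide miR-30c -3.38, -3.0 and -2.26, then -3.01, -3.32 and -2.75, then -3.73, -3.76 and -3.38. Both stars were higher on all 3 arrays of 60 h than on any of 24 h. Star minus guide changed by 1.87 for miR-30c-2* (SE 0.782, adjusted p = 0.0626) and by 1.62 for miR-30c-1* (SE 0.802, adjusted p = 0.102). As a level, miR-30c-2* rose 2.18-fold (log2 1.13, SE 0.406, adjusted p = 0.0414). On the 59Q arrays miR-30c-2* read -2.54, -3.56 and -3.53 at 24 h, -2.90, -3.61 and -2.83 at 36 h and -4.11, -2.95 and -2.83 at 60 h, and miR-30c-1* -3.43, -4.01 and -4.11, then -3.37, -3.36 and -3.18, then -4.11, -2.43 and -3.03. Replicate 1 of 59Q at 60 h was at the floor for both stars, and it had the highest miR-30c guide of the 18 arrays, -1.76. At 60 h the miR-30c guide was above background on only 1 of 3 arrays in each construct. The star-minus-guide changes of both stars therefore include guide signals not well above background, with or without the 4 arrays. Without the 4 arrays the miR-30c-1* change of star minus guide passed in both constructs, at 2.40 in 16Q (adjusted p = 0.0455) and 2.57 in 59Q cells (adjusted p = 0.0053, against 1.36 and 0.411 with them). For miR-30c-2* it was then 2.18 and 1.77 (adjusted p = 0.09 and 0.0629).

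let-7b*, the passenger arm of a let-7 miRNA that restrains growth and stem cell genes, read -2.04, -2.21 and -4.10 at 24 h, -3.98, -3.19 and -3.50 at 36 h and -4.02, -4.11 and -3.97 at 60 h in 16Q cells. On the 59Q arrays it read -4.08, -4.10 and -4.11, then -4.08, -1.89 and -2.92, then -4.04, -4.11 and -3.28. Its 3 highest arrays were 3 of the 4 that stand apart. It was above background on no 16Q array at 60 h, and replicate 3 of 24 h lay as low as those arrays. The difference in level did not pass (adjusted p = 0.0683, and 0.884 without the 4 arrays). The guide let-7b, by contrast, stayed between -1.21 and -0.37 on all 18 arrays. Star minus guide did not pass between 24 and 60 h in 16Q cells (adjusted p = 0.0999, and 0.855 without the 4 arrays), and no size is given because the star was not measured above background at 60 h.

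**Figure D2:**
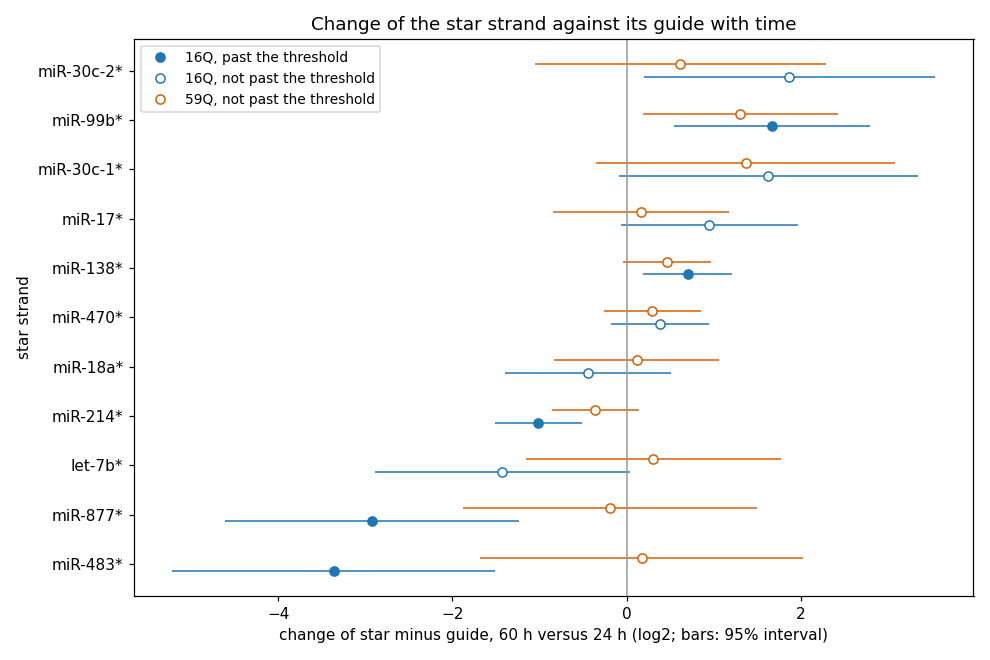
The change of star minus guide from 24 to 60 h (log2, horizontal axis) is plotted for the 11 pairs in 16Q cells (blue) and 59Q cells (orange), with 95% intervals. Filled points passed the test. In 16Q cells the values run from -3.36 for miR-483* to 1.87 for miR-30c-2*, and no 59Q point is filled.

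In 16Q cells the guide of miR-877 was above background on no array at 24 h, nor were let-7b* and miR-18a* at 60 h. The plotted 16Q changes of these 3 pairs thus rest on a group with no such signal, as does the 59Q change of miR-18a*. Other plotted changes also include signals not well above background. Among them, at 60 h in 16Q cells, miR-214* and the miR-30c guide were above background on 1 of 3 arrays and the miR-17 and miR-99b guides on 2. In 59Q cells at 24 h let-7b* and the miR-877 guide were on 1. The pairs of miR-17*, miR-470* and miR-18a* did not pass in this comparison. Star minus guide differed by 0.95 for miR-17* (SE 0.474, adjusted p = 0.102) and by 0.38 for miR-470* (SE 0.261, adjusted p = 0.23). miR-18a* was above background on no 16Q array at 60 h, and its pair gave an adjusted p of 0.389. Across the 18 arrays miR-17* ranged from -3.24 to -1.87, miR-470* from -4.11 to -2.59 and miR-18a* from -4.11 to -3.33, with 8 arrays at the floor. miR-17 and miR-18a come from the miR-17 cluster, which is driven by Myc and E2F factors.

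As levels, 7 of the 17 star strands changed between 24 and 60 h in 16Q cells, 6 up and 1 down, against 35.4% of all 226 entries (25.2% up and 10.2% down). The median difference was 0.55 over the 17 and 0.16 over all entries. Fewer cells that express a miRNA and less of it per cell cannot be told apart in these bulk samples. Groups did not overlap for 11 of the 17, against 52.2% of all entries. The direction of these levels is relative to the scaling. With no scaling, which moved the median of all entries from 0.16 to -0.70, 3 star strands were called, miR-150* up (1.49, adjusted p = 0.0403) and miR-483* and miR-877* down (-2.27 and -2.66, adjusted p = 0.0387 and 0.03), and over all entries 7 were higher and 34 lower, against 57 and 23 with it. Besides miR-99b*, miR-138*, miR-30c-2* and miR-877*, those that passed were miR-150*, miR-135a* and miR-295*, 3 stars whose guides could not be tested. miR-150* rose 5.32-fold (log2 2.41, SE 0.474, adjusted p = 0.00473), with -3.76, -3.61 and -2.50 at 24 h, -2.30, -2.53 and -2.42 at 36 h and -0.81, -0.73 and -1.09 at 60 h. Without the 4 arrays, and so against 1 array of 24 h, it was the single star strand called, at 1.62 (adjusted p = 0.0315). In 59Q cells it read -1.93, -2.73 and -2.77 at 24 h and -3.02, -0.70 and -1.20 at 60 h, a difference of 0.83 (SE 0.474, adjusted p = 0.839), and without the 4 arrays the difference was 1.53 and passed (adjusted p = 0.0063).

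miR-135a* rose by 1.75 in 16Q cells (SE 0.511, adjusted p = 0.0212), from -3.51 ± 0.78 to -1.76 ± 0.31 (SD, n = 3). miR-295* rose by 1.03 (SE 0.386, adjusted p = 0.0482), from -3.88 ± 0.36 to -2.85 ± 0.36 (SD, n = 3). These differences became 0.85 (adjusted p = 0.335) and 0.61 (adjusted p = 0.435) without the 4 arrays. The remaining star strands with no testable guide did not pass: across the 18 arrays miR-140* ranged from -3.51 to -1.77, miR-433* from -4.11 to -2.65 and miR-676* from -4.11 to -2.06.

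The 16Q 24 h and 60 h arrays share no slide, so slide and time cannot be told apart within this comparison. A fit with slide as a block, which links them only through the 36 h arrays, called 0 of the 17 levels and 2 of the 11 pairs, miR-30c-2* (log2 3.19, adjusted p = 0.0465) and miR-99b* (2.13, adjusted p = 0.0497). With a normexp background correction 0 levels and 0 pairs passed. Under it the star-minus-guide changes of miR-214*, miR-483* and miR-877* were -0.60, -1.38 and -1.51 (adjusted p = 0.0571 for each).

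In the other comparisons of times, no star strand and no pair passed limma's adjusted threshold. For 16Q at 36 h versus 24 h, 0 of 17 levels were called (0.0% of all entries) and 0 of 11 pairs (0.0% of 22), with 1 level and 0 pairs at an unadjusted p under 0.05. The 3 pairs with the smallest p were miR-483* (-1.76, SE 0.867), let-7b* (-0.95, SE 0.683) and miR-18a*, which was above background on no 16Q array at 36 h. The first 2 turned to 0.42 and 0.63 without the 4 arrays. For 59Q at 36 h versus 24 h, 0 levels (0.0%) and 0 pairs (0.0%) were called, with 4 and 2 at an unadjusted p under 0.05. The smallest p there were for miR-99b* (1.61, SE 0.525, adjusted p = 0.122), let-7b* (1.47, SE 0.683) and miR-30c-1* (1.58, SE 0.802). Because let-7b* entered the test through the 59Q 36 h group alone, its difference here is not support for a rise. It was above background on 1 of the 59Q arrays of 24 h. For 59Q at 60 h versus 24 h, 0 levels were called against 1.33% of all entries, and 0 pairs (0.0%), with 0 and 1 at an unadjusted p under 0.05. Its first 3 pairs, miR-99b*, miR-138* and miR-30c-1*, are given above. Groups did not overlap for 1 level (12.8% of entries) and 1 pair (22.7%), then 3 levels (30.5%) and 3 pairs (36.4%), then 0 levels (6.64%) and 2 pairs (13.6%) in these 3 comparisons. The comparisons share their 24 h arrays within a construct.

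The comparison of the long with the short tract gave no called star strand. At 24, 36 and 60 h and averaged over the times, 0 of 17 levels passed, against 0.442% of the 226 entries each time, and 0 of 11 pairs passed, against 0.0% of 22. At an unadjusted p under 0.05 there were 4 levels at 24 h, 1 at 36 h and 0 at 60 h or averaged, and 2, 1, 1 and 0 pairs. Groups did not overlap at 24, 36 and 60 h for 1, 2 and 0 levels, against 10.2%, 24.8% and 3.54% of entries, and for 1, 2 and 0 pairs, against 13.6%, 18.2% and 0.0%. The dependence of the difference on time, an F test, called 0 of either (0.0% of entries and of pairs), with 4 levels and 1 pair at an unadjusted p under 0.05. With slide as a block these calls changed: at 60 h the levels of miR-150* (-2.15, adjusted p = 0.01) and miR-99b* (-1.36, adjusted p = 0.0421) were lower in 59Q cells. So was star minus guide of miR-30c-2* (-3.14, adjusted p = 0.0079), miR-30c-1* (-2.91, adjusted p = 0.0093), miR-99b* (-2.04, adjusted p = 0.0093) and miR-17* (-1.65, adjusted p = 0.0409). The dependence on time then passed for the levels of miR-150*, miR-30c-2* and miR-99b* and for the pairs of miR-30c-1*, miR-30c-2* and miR-99b*. At 60 h the slide shared by the constructs held 1 array of 59Q, replicate 1, which is one of the 4 that stand apart.

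At 24 h all arrays lay on 1 slide. The largest star-minus-guide differences of 59Q from 16Q were -2.63 for miR-483* (SE 0.867, adjusted p = 0.19), -1.57 for let-7b* (SE 0.683, adjusted p = 0.239) and -1.65 for miR-877* (SE 0.788, adjusted p = 0.239). The same 3 stars were lower as levels, let-7b* by -1.32, miR-483* by -1.46 and miR-877* by -1.43, each with an adjusted p of 0.19 to 0.195. All 3 were high on replicates 1 and 2 of 16Q at 24 h and not on replicate 3, and replicate 3 lay within the 59Q values. With the 4 arrays left out, the pair differences were -0.46 for miR-483*, -0.34 for miR-877* and 0.011 for let-7b* (adjusted p = 0.986 for each). The guide of miR-877 was above background on no 16Q array of 24 h. For miR-135a* the level difference at 24 h was 1.12 (SE 0.511, adjusted p = 0.22), with the 59Q replicates at -1.32, -2.87 and -2.98.

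At 36 h the 3 pairs with the smallest p were miR-99b* (1.21, SE 0.525), miR-138* (0.48, SE 0.237) and miR-18a*, all with an adjusted p of 0.352. No size is given for miR-18a*, which was above background on no 16Q array of 36 h. On the slide that held all 59Q and 1 of the 16Q arrays of that time the differences were 1.52 for miR-99b* and 0.45 for miR-138*, and without the 4 arrays they were 0.99 and 0.46. At 60 h they were miR-214* (0.51, SE 0.232, adjusted p = 0.642), miR-877* (1.09, SE 0.788) and miR-30c-2* (-0.83, SE 0.782). The 95% interval for miR-214* ran from 0.012 to 1.0, and on the shared slide, with 59Q replicate 1 and 3 arrays of 16Q, the 3 differences were 0.76, 1.86 and -3.14. They were 0.38, 0.70 and 0.33 without the 4 arrays, among them that replicate. Averaged over the times, the first 3 were miR-470* (0.19, SE 0.151), miR-483* (-0.45, SE 0.5) and miR-138* (0.11, SE 0.137), each with an adjusted p of 0.893. For the dependence on time they were miR-483* (adjusted p = 0.184), let-7b* (adjusted p = 0.192) and miR-214* (adjusted p = 0.192).

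**Figure D3:**
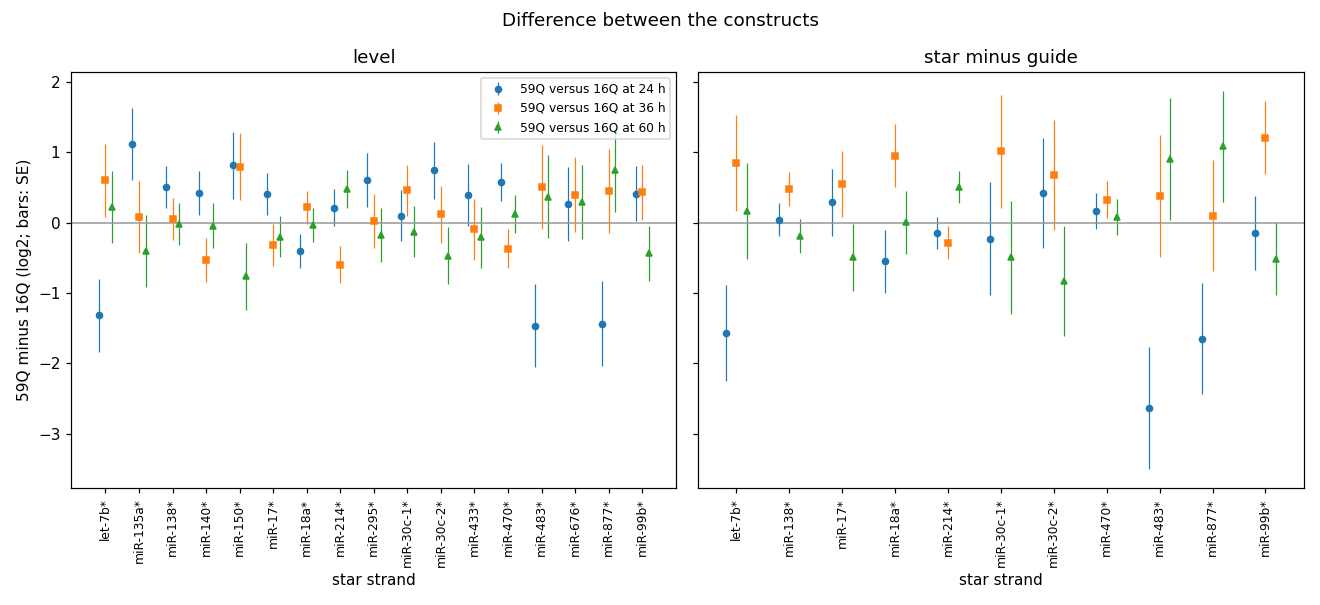
The difference of 59Q from 16Q (log2, vertical axis, bars are SE) is plotted for the 17 star strands as levels on the left and for the 11 pairs as star minus guide on the right, at 24 h (circles), 36 h (squares) and 60 h (triangles). None passed the test, and the lowest points are miR-483*, miR-877* and let-7b* at 24 h.

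The change of a star strand in 16Q cells varied with its base content, which the choice of members did not use. This relation was looked for after the values were seen. miR-877* and miR-483* are 90.9% and 90.5% pyrimidine (C and U) and let-7b* is 72.7%, while miR-150* and miR-135a* are 36.4% each and 45.5% G. Of these 5, miR-877*, miR-150* and miR-135a* passed the test as levels, and miR-483* and let-7b* did not. Over the 16 star strands with a sequence, the share of G and the 16Q change from 24 to 60 h had Pearson's r = 0.88 and Spearman's rho = 0.79, and the pyrimidine share r = -0.86 and rho = -0.68. Across the 11 pairs, the difference in G between star and guide and the change of star minus guide had r = 0.92 and rho = 0.88, and with pyrimidine r = -0.97 and rho = -0.91. Leaving out the 2 pairs farthest from the median gave 0.89 and -0.91. The points of let-7b* and miR-18a*, and of miR-877* among the pairs, rest on a 16Q group where an arm was above background on no array. The points share the same 6 arrays and their scaling, 2 of them share the miR-30c guide, and miRNAs are not independent replicates, so no p is given.

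Base content moved with other comparisons as well. Without the 4 arrays the r with G was 0.68 for the 16Q star levels and 0.88 for the pairs. The r with pyrimidine was then -0.53 for the levels and -0.88 for the pairs. For 59Q from 24 to 60 h the r with G was 0.01 for levels and 0.66 for pairs, and 0.34 and 0.83 without the 4 arrays. That value for the 59Q pairs was 0.30 with normexp, 0.29 with the deposited table and 0.64 with no scaling. For 59Q against 16Q the r with G was 0.84 and 0.79 at 24 h, -0.07 and 0.45 at 36 h and -0.83 and -0.88 at 60 h. These became 0.43 and 0.89, 0.57 and 0.84, and -0.66 and -0.17 without the 4 arrays. The 3 stars richest in pyrimidine, with miR-18a*, were also the 4 of the 17 whose 3 highest arrays were the 16Q 24 h replicates 1 and 2 and the second 59Q replicate of 36 h, which holds for 12.8% of all tested entries (29 of 226). miR-214*, at 68.2% pyrimidine like miR-18a*, instead had 16Q 24 h replicate 1 and the second 59Q replicate of 36 h among its 3 lowest arrays. Conversely, the 16Q 24 h replicates 1 and 2 were both among the 3 lowest arrays for 8 of the 17 (82 of 226 entries, 36.3%). The part of base content, of these arrays or of the slides in the arm shifts was not tested.

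**Figure D4:**
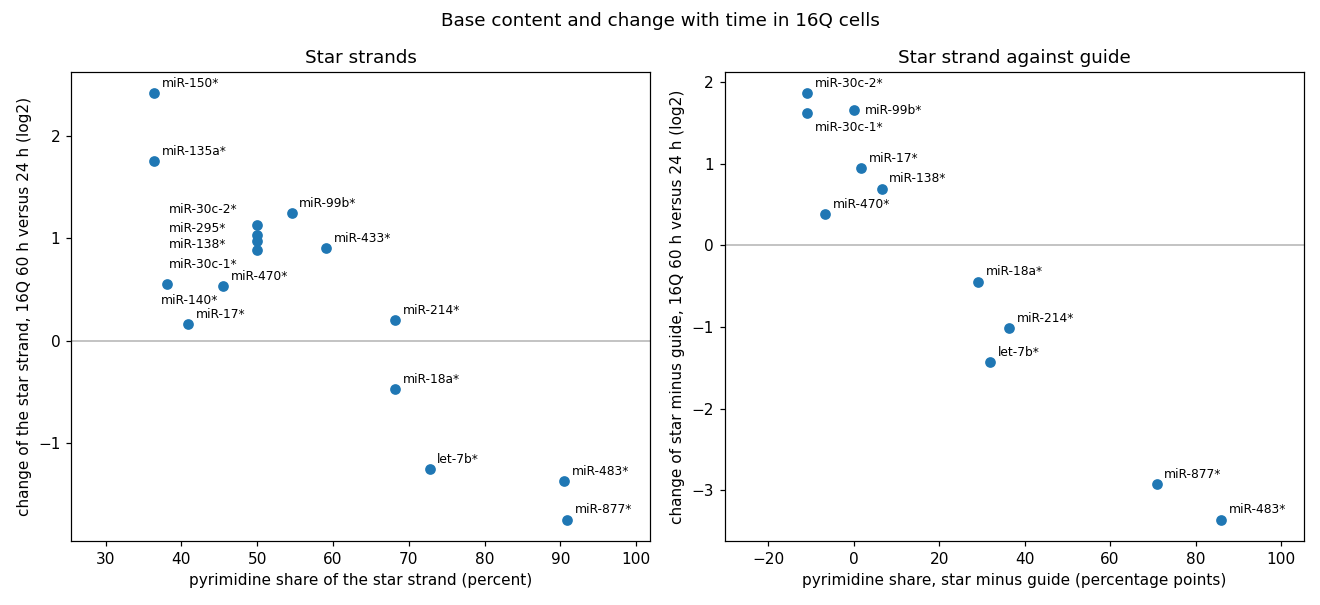
Pyrimidine share is plotted against the 16Q change from 24 to 60 h (log2), with 1 point per star strand on the left (16) and 1 per pair on the right (11, star minus guide on both axes). miR-483* and miR-877* lie at the lower right of both panels, and no p is given for either relation. The changes of let-7b*, miR-18a* and the miR-877 pair include a 16Q group where an arm was above background on no array.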

How the data were processed

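RNA from 18 samples of Neuro2A cells (3 per construct and time) was measured on Agilent mouse miRNA arrays of 12553 spots, with 5 to 20 spots per probe and 1890 mouse probes. Per the file headers, each deposited scanner file lists intensity per spot from Feature Extraction 9.5.1.1, including a processed signal already background-subtracted by that software. The deposited series table holds log2 values that equal log2 of the net signal within 0.01 on all spots, with no scaling between arrays (medians 4.98 to 5.90). It served as an alternative only. The aligner or annotation behind the probe names is not given in the sources used here, and names are those of the array design.

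The processed signal was averaged over unflagged spots of a probe, scaled to the 75th percentile of 290 probes that were bright on every array, floored at 0.0581 and taken to log2. A probe counted as above background where at least 50% of its spots carried the scanner's flag. An entry averages those of its probes that were so on every array of some group (557 probes, 226 entries). The 22 arm pairs comprise the 11 star pairs, 3 star pairs left out by number and 8 pairs of 3p and 5p entries. Where a star name carries a locus number the guide is the entry without it (9 members), and 2 members had no single guide entry. Tests used limma 3.58.1 in R 4.3.3 with 6 group means and 12 residual degrees of freedom. Of the steps, only this fit was tested on simulated data, which had independent noise and no floor, filter, scaling or slide differences. For a group with no array above background, a fold is a bound: the bright group's mean against the higher, per array, of the lowest signal well above background and the entry's own.

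Star and guide names were matched by hand to 5p or 3p arms in RefSeq (GRCm38.p6), since the scanner files hold no sequence. The members and lists were chosen with earlier results of these data known. Named by rule were all star strands past the threshold and, where fewer than 3 pairs passed, the 3 pairs with the smallest p, with values on every array for 8 members in order of adjusted p. Array values of miR-150* and miR-135a* were added after they were seen. Alternatives were normexp background correction (offset 50), quantile normalization, no scaling, the percentile over all probes, the deposited table, no filter or a strict one, the brightest probe, replicate number or slide as a block, only the arrays compared, leaving out 4 arrays, and leaving out each array.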

Additional observations from a re-analysis of the deposited data

How the results depend on the processing

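Counts of called star strands (of 17) and star-minus-guide pairs (of 11) are compared with those in the main test, and the cause of a change was not tested. For 16Q 60 h versus 24 h (7 levels, 5 pairs), levels numbered 0 with normexp, 3 with no scaling, 0 with the deposited table, 1 with no filter, 0 with slide as a block and 1 without the 4 arrays, and 1 to 11 with 1 array left out. The pairs numbered 0 with normexp, 1 with the strict filter (1 pair left), 2 with slide as a block and 3 without the 4 arrays, and 3 to 8 with 1 array left out. All other comparisons had 0 calls of both. With slide as a block, 59Q versus 16Q at 60 h had 2 levels and 4 pairs, and the dependence on time 3 of each. Without the 4 arrays, 59Q 36 h versus 24 h had 1 level, and 59Q 60 h versus 24 h had 2 levels and 2 pairs. The strict filter called 1 pair for 59Q versus 16Q at 24 h, and no filter called 1 pair each for 16Q 36 h versus 24 h and 59Q 60 h versus 24 h. With 1 array left out, the range was 0 to 5 levels and 0 to 2 pairs for 59Q versus 16Q at 24 h (5 without 16Q 24 h replicate 3), 0 to 5 levels and 0 to 3 pairs for 59Q 36 h versus 24 h, 0 to 2 levels and 0 to 3 pairs for 59Q 60 h versus 24 h, 0 to 1 pair for 16Q 36 h versus 24 h, and 0 to 3 levels and 0 to 2 pairs for the dependence on time. Of the other counts, 192 under alternatives and 306 with 1 array left out stayed within 1.5 times.

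None of the differences that changed sign passed the threshold in the main test or under the alternative. For 59Q versus 16Q, star minus guide became 0.011 for let-7b* at 24 h without the 4 arrays, -0.14 (normexp) and -0.10 (deposited table) for miR-214* at 60 h, and 0.33 for miR-30c-2* at 60 h without the 4 arrays (with 1 array left out it ran from -1.49 to 0.33, the latter without 59Q 60 h replicate 1). Averaged over times it became -0.024 for miR-138* with normexp and -0.10 (normexp) and -0.023 (slide) for miR-470*. For 16Q 36 h versus 24 h it became 0.63 for let-7b*, 0.17 for miR-18a* and 0.42 for miR-483* without the 4 arrays, and 0.0086 for miR-18a* with the deposited table. It became -0.28 for miR-30c-1* in 59Q 60 h versus 24 h with slide as a block, and -0.22 for miR-214* in the dependence on time with the deposited table.

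No scaling moved the median of all entries for 16Q 60 h versus 24 h from 0.16 to -0.70, and the guide of miR-214 then differed by 0.29 (adjusted p = 0.527). The correlation of the share of G with the star level, added after seeing the data, was 0.68 without the 4 arrays. That of the pyrimidine share was -0.53. With the replicate block, 5 levels and 5 pairs were called for 16Q 60 h versus 24 h. Same-numbered replicates of the 2 constructs deviated together with r of -0.30, 0.38 and -0.30 at 24 h, in order of replicate number. At 36 h r was 0.36, 0.67 and -0.51, and at 60 h it was -0.19, 0.63 and -0.18. It was positive at every time for replicate 2, and most other values were negative. Deviations within such small groups cannot decide whether the numbers pair the samples, and the labels do not say.

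The dimmest members limit the result: 8 arrays of miR-18a* and 6 of miR-433* were at the floor, where values have no order.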
